A study of Mus musculus with 21 samples.

Results

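A panel of 41 genes that act in S phase or in G2 and mitosis was followed through colon and colon tumour RNA of mice. The genes were picked by symbol for what they do in the cell cycle, and all 41 were found among the 24062 genes of the count table. They and the other gene lists below were chosen with earlier results of these data known, so their counts are descriptions and not independent support. They comprise 18 S phase genes (origin licensing and the replicative helicase, the fork clamp and chromatin assembly, nucleotide supply, and regulators of the G1/S step) and 23 G2/M genes (cyclins and Cdk1, mitotic kinases and checkpoint proteins, partners of the anaphase-promoting complex, centromere proteins, kinesins and spindle proteins, and chromosome structure). All 41 passed the filter on low counts, as did 15936 genes in the whole table.

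Dividing cells switch these genes on in waves. Transcription factors of the E2F family, held back by RB proteins until cyclin-dependent kinases release them, turn on the S phase genes, and the DREAM, MuvB, B-MYB and FOXM1 complexes first repress and then activate the G2/M genes, which many of them recognise through a CHR element (cell cycle genes homology region) with CCAAT boxes nearby. In normal colon, dividing cells sit in the lower part of the crypt, and colon tumours are known for their high share of dividing epithelial cells.

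The mice were C57BL/6, and 7 groups of 3 libraries each were used. Untreated (labelled non-treatment) normal colon came from wild-type males, knock-in males, wild-type females and knock-in females. Tumours came from AOM/DSS-treated wild-type males, knock-in males and wild-type females. AOM (azoxymethane) is a colon carcinogen and DSS (dextran sulfate sodium) injures the colon lining, and together they give inflammation-driven colon tumours. The knock-in carries App NL-G-F, a humanised amyloid precursor protein allele with familial Alzheimer's disease mutations, placed in the mouse App gene itself and therefore driven by its own promoter. The title of the study asks how such App mutations bear on colorectal tumour formation in each sex. Its design text describes the non-tumour samples as colon next to tumours, or as colon of mice without tumours, while the sample labels give all of them as untreated, so they are called normal colon here. Knock-in female tumours were not analysed here. Age is not in the labels used here, nor do they say that the libraries of a group came from separate animals, so p-values measure the spread between these samples. Because tumours were compared with untreated colon, the tumour itself and the treatment cannot be told apart.

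Library totals ran from 3414123 to 26174008 counts. Levels are given as CPM, a gene's counts divided by its library's size and brought to a common total, with library sizes scaled with the trimmed mean of M values (TMM), which sets libraries to a common size by their bulk of genes. The summed level of 10 epithelial markers was 6706 to 7989 CPM in the lowest group and 11526 to 12568 CPM in the highest, and no marker of the 10 cell type lists was at 0 in every library. Some libraries stood apart in the 41 genes. Replicate 1 of the knock-in male tumours was the lowest of its group for 40 of the 41 genes, with summed levels over the panel of 1575, 3228 and 2463 CPM in replicates 1, 2 and 3. Replicate 2 of the wild-type female normal colon was the highest of its group for 18 of 18 S genes, while for the G2/M genes it was the highest for 6 of 23. Among wild-type males, replicate 3 of the normal colon was the lowest for 32 of 41 genes and replicate 1 of the tumours the highest for 17 of 18 S genes. Results that rest on these libraries are given with and without them.

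Promoter windows of 6 of the genes are shown because they carry the sites just named. Mcm3 and Cdt1 stand for the S genes, Cdk1, Top2a and Ube2c for the G2/M genes, and Plk1 for a G2/M gene with the same sites whose RNA was not higher in tumours (below). Sequences are from RefSeq (GRCm38.p6, the assembly of mm10), 250 bases before to 50 bases after the annotated start, so each runs into the transcribed part. The Mcm3 window is chr1:20820263-20820562 (minus strand). The Cdt1 window is chr8:122567765-122568064 (plus strand). The Cdk1 window is chr10:69352863-69353162 (minus strand). The Top2a window is chr11:99024140-99024439 (minus strand). The Ube2c window is chr2:164769679-164769978 (plus strand). The Plk1 window is chr7:122159185-122159484 (plus strand). Capitals mark each match on either strand to an E2F site (TTTCCCGC, TTTGGCGC, TTTGCCGC or TTTCGCGC), a CHR element (TTTGAA or TTCGAA) or a CCAAT box (CCAAT), and matches that touch form 1 run of capitals.
Mcm3: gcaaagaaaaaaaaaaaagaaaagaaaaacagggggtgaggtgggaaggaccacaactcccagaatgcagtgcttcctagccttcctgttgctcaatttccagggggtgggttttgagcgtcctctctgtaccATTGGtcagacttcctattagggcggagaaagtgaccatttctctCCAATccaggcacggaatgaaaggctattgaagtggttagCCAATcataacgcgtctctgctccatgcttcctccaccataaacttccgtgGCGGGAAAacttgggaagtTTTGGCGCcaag
Cdt1: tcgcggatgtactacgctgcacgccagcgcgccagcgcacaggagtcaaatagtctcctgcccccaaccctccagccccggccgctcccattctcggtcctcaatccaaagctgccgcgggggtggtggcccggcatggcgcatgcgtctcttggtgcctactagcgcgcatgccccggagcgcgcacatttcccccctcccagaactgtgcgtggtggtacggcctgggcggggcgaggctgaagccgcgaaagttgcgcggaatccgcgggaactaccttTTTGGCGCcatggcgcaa
Cdk1: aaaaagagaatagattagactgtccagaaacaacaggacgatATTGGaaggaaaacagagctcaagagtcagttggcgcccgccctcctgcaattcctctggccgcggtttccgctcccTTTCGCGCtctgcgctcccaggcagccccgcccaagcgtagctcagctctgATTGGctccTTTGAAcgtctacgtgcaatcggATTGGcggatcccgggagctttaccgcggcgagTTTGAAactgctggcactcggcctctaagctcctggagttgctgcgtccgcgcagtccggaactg
Top2a: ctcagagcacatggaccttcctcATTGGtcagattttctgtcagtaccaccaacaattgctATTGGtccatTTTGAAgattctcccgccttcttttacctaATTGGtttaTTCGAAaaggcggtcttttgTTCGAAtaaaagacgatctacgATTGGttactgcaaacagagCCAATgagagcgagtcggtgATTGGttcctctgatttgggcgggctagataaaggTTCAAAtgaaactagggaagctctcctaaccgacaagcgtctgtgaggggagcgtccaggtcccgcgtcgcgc
Ube2c: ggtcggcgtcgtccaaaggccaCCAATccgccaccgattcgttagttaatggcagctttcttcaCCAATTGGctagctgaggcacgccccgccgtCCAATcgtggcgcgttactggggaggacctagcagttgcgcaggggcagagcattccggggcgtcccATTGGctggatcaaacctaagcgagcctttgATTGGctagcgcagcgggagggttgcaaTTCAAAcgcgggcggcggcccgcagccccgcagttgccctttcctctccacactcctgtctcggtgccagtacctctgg
Plk1: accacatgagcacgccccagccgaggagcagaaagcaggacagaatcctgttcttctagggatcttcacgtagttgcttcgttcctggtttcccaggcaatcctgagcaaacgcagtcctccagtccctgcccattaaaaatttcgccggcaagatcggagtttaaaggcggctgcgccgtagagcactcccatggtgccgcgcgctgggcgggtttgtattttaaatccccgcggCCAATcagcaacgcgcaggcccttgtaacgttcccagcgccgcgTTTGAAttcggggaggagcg

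The Mcm3 window held 2 E2F matches and 3 CCAAT matches, and the Cdt1 window held 1 E2F match. The Cdk1 window held 1 E2F, 2 CHR and 3 CCAAT matches, that of Top2a 4 CHR and 6 CCAAT, that of Ube2c 1 CHR and 6 CCAAT, and that of Plk1 1 CHR and 1 CCAAT. Over the panel, 34 of the 41 genes had a window, and Mcm7 and Uhrf1 had 2 each. An E2F match was in 7 of 17 S windows (41.2%) and in 1 of 19 G2/M windows (5.26%), against 2.26% of all 32851 mouse promoter windows of the same length. A CHR match was in 2 of 17 S windows (11.8%) and in 15 of 19 G2/M windows (78.9%), against 19.2% of all windows. A CCAAT match was in 64.7% of S windows, 84.2% of G2/M windows and 37.4% of all. CHR and CCAAT stood together in 14 of 19 G2/M windows (73.7%), 2 of 17 S windows (11.8%) and 7.52% of all windows. E2F matches were therefore mainly in S windows and CHR matches mainly in G2/M windows. The shares are descriptions of the letters, and a window without a match says only that these letters are not in it.

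**Figure D1:**
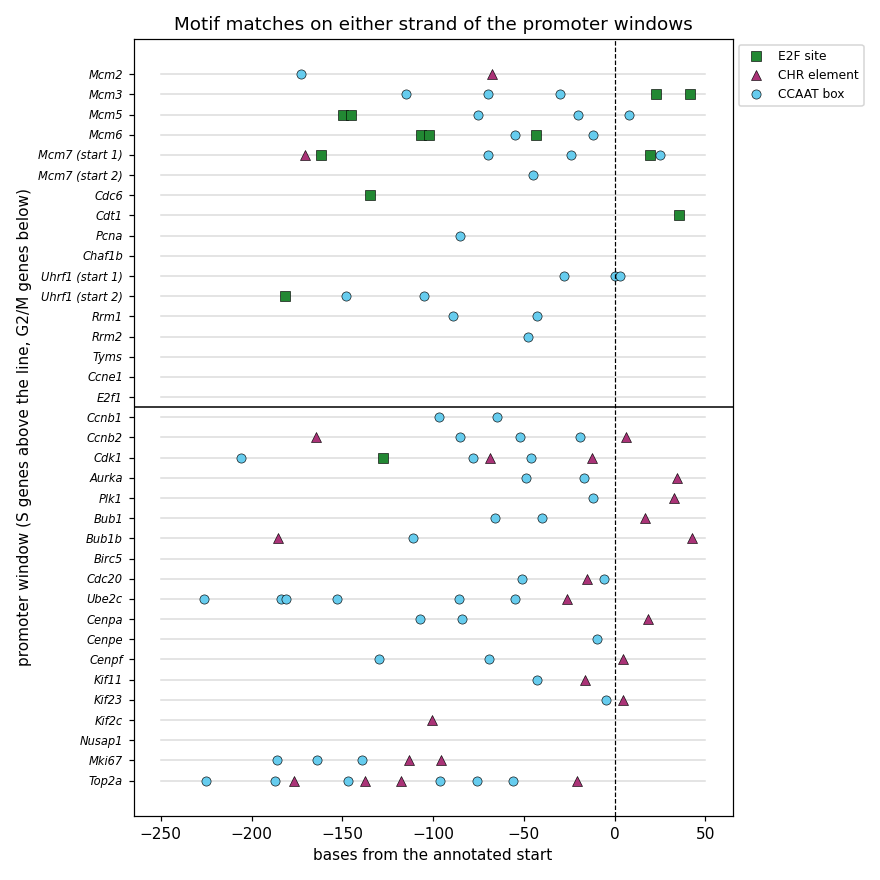
Matches to E2F sites (squares), CHR elements (triangles) and CCAAT boxes (circles) on either strand, by distance in bases from the annotated start (dashed line), in the 36 promoter windows of 34 genes. E2F squares lie mainly in the S windows (7 of 17) and CHR triangles mainly in the G2/M windows (15 of 19).

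Set per kilobase of transcript, the levels in wild-type male normal colon ranged from 1.54 CPM per kilobase for Gins2, a subunit of the GINS complex that activates the helicase, to 49.2 for Pcna, the sliding clamp of the replication fork. Mki67, which codes for the proliferation antigen Ki-67, was at 32.5, Plk1 at 31.1 and Top2a, the topoisomerase that untangles chromosomes, at 29.5 CPM per kilobase. Cdc6 at 1.81 and Ccne2 at 1.83 were near the low end. Levels thus spanned a wide range within both phases, and the phase means that follow weight each gene equally on the log scale. The mean log2 CPM over the 18 S genes was 4.66, 4.69 and 4.39 in the 3 wild-type male normal libraries and 5.37, 5.03 and 5.10 in the wild-type male tumours. In the knock-in males the S means were 4.39, 4.58 and 4.47 in normal colon and 4.57, 5.51 and 5.36 in tumours. The S means of wild-type females were 4.05, 4.68 and 3.93 in normal colon and 5.56, 5.41 and 5.40 in tumours, and those of knock-in female normal colon were 4.47, 4.52 and 4.33. So the tumour S means were above those of the matching normal colon in each library but replicate 1 of the knock-in male tumours, which lay within the normal range.

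For the 23 G2/M genes the means were 5.02, 4.96 and 4.74 (log2 CPM) in wild-type male normal colon and 5.57, 5.33 and 5.47 in the tumours of those males. For knock-in males they were 4.44, 4.72 and 4.56 in normal colon and 4.87, 5.88 and 5.32 in tumours. For wild-type females they were 4.73, 4.74 and 4.81 in normal colon and 5.86, 5.66 and 5.60 in tumours, and for knock-in female normal colon 4.80, 4.59 and 4.52. All tumour G2/M means lay above those of the normal colon of the same sex and genotype. The knock-in male tumours were the most spread, with replicate 1 lowest for 23 of 23 G2/M genes and replicate 2 highest for 23 of 23.

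**Figure D2:**
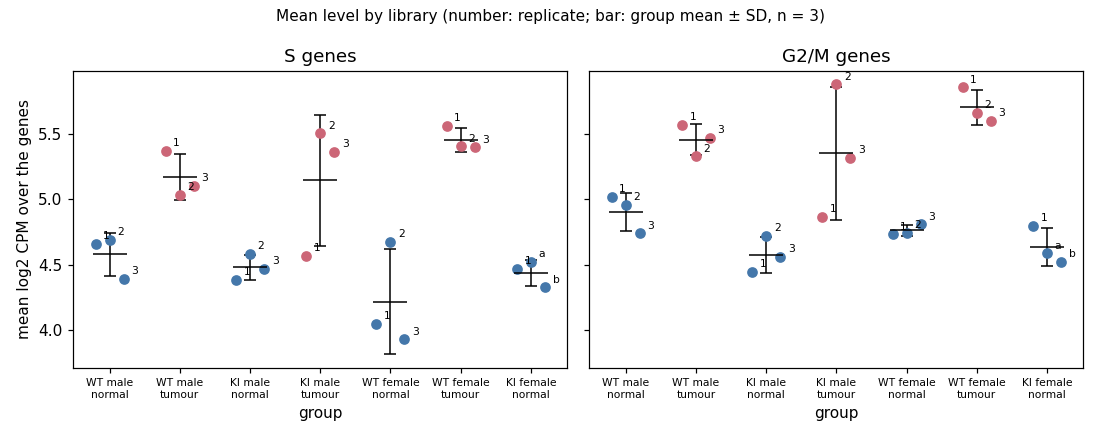
Mean log2 CPM over the 18 S genes (left) and the 23 G2/M genes (right) in each of the 21 libraries, by group (WT, wild type; KI, knock-in; tumours red, normal colon blue), with the replicate number beside each point and bars for the group mean ± SD (n = 3). The wild-type female tumours sit at 5.56, 5.41 and 5.40 for S and the knock-in male tumours spread from 4.87 to 5.88 for G2/M.

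**Figure D3:**
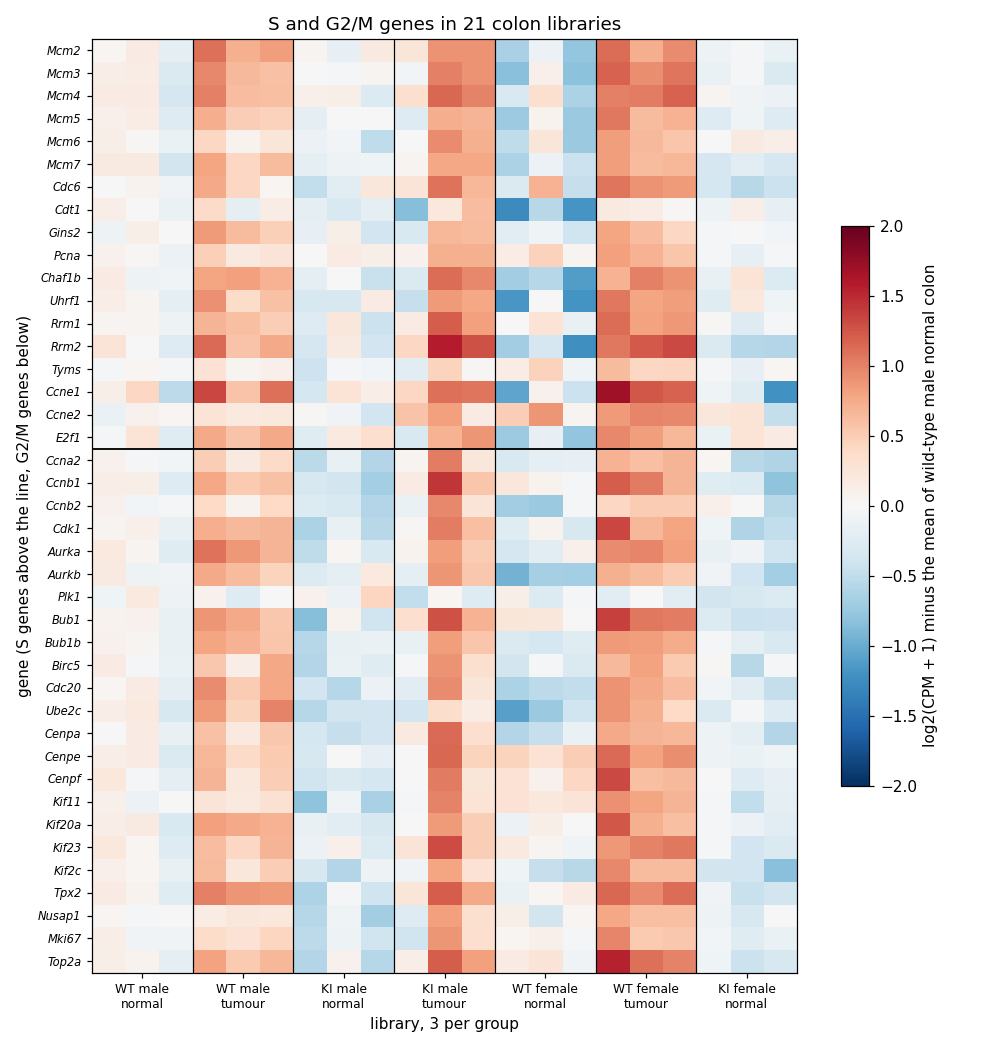
Log2(CPM + 1) of each of the 41 genes (rows, S above the line, G2/M below) in each of the 21 libraries (columns, 3 per group), as the difference from the mean of wild-type male normal colon. The tumour columns are red for most genes, with paler columns for replicate 1 of the knock-in male tumours, and the Plk1 row stays pale throughout.

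Tumours were compared with normal colon of the same sex and genotype with edgeR's quasi-likelihood F test (two-sided), fitted on all 21 libraries, with p-values adjusted by Benjamini-Hochberg over the 15936 genes tested and a threshold of 0.05. In the wild-type males, 21 of the 41 genes were higher in tumours and 0 were lower, where 16.5% of all tested genes were called higher and 19.3% called lower. In the knock-in males, 30 of 41 were higher and 0 lower, where 10.4% of all genes were called higher and 9.97% lower. In the wild-type females, 38 of 41 were higher and 0 lower, where 25.0% of all genes were called higher and 24.0% lower. In each comparison the share of the panel that rose was over 3 times the share of all genes. At an unadjusted p under 0.05, 28, 37 and 38 genes passed in the same order. The share of all genes at this looser threshold is not given, here or below. Shares of all genes called are at the adjusted threshold. No gene of the panel was called lower by edgeR or by DESeq2's Wald test. The median log2 fold change of the panel was 0.61 in the wild-type males, 0.79 in the knock-in males and 1.08 in the wild-type females, against 0.01, 0.01 and 0.01 over all tested genes.

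Counted by non-overlap of the 3 tumour and 3 normal values, 34 of 41 genes lay wholly higher in tumours of wild-type males (26.0% of all genes), 24 in the knock-in males (16.1%) and 38 in the wild-type females (29.9%). The 3 comparisons share no library. 15 genes were called higher in all 3: Mcm2, Mcm4, Mcm7, Chaf1b, Rrm1, Rrm2, Cdk1, Aurka, Bub1, Bub1b, Cdc20, Kif20a, Kif23, Tpx2 and Top2a. 39 of the 41 were called in at least 1, and Tyms and Plk1 in none. The shares of all genes called in all 3 or in at least 1 are not given, so these counts only list the genes.

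How far these calls rest on single libraries differed between the comparisons. In the wild-type females, 33 to 37 genes were called higher when any 1 library was left out, and 32 of the 38 kept their call in each of those fits. In the wild-type males the count was 6 without normal replicate 3 and 6 without tumour replicate 1, and Mcm2, Aurka, Bub1b, Ube2c, Kif20a and Tpx2 kept their call in each fit that left 1 library out. In the knock-in males the count was 11 without tumour replicate 2, 17 without normal replicate 3, 18 without normal replicate 1 and 36 without tumour replicate 1. Fitted on the knock-in male groups alone, 0 of the 41 passed in the knock-in males by edgeR, with 32 at an unadjusted p under 0.05 and a lowest adjusted p of 0.0527. DESeq2's Wald test on all libraries gave 31 there. The median log2 fold change in the knock-in males was 0.89 for S genes and 1.01 for G2/M genes without tumour replicate 1, and 0.55 and 0.48 without tumour replicate 2. In the wild-type females the S median was 1.21, and 1.49 without normal replicate 2, with 37 genes called. Over all alternatives run (14 or 15 for each comparison), 5 calls held in at most 0.5 of them: E2f1 in the wild-type males (6 of 14), and Pcna (4 of 15), Ccne2 (6 of 15), Mki67 (6 of 15) and Cdc6 (7 of 15) in the knock-in males.

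Markers of other cell types moved with the same groups. The summed level of 10 smooth muscle markers was 3222 to 10686 CPM in wild-type male normal colon and 334 to 975 CPM in the tumours, 5175 to 9151 and 1029 to 1276 CPM in the knock-in males, and 2219.9 to 5108 and 270.1 to 328 CPM in the wild-type females, and 10 of the 10 markers were called lower in each. The summed level of 6 crypt stem and progenitor markers (such as Lgr5, Ascl2 and Axin2) was 366 to 747 CPM in wild-type male normal colon and 1511 to 1616 CPM in the tumours, with 5 of 6 called higher. In the wild-type females it was 191 to 254 and 1251 to 1567 CPM, with 6 of 6 called higher, and in the knock-in males 408 to 909 and 883 to 1228 CPM, with 0 of 6 called. Differentiated colonocyte markers were called lower for 6, 5 and 7 of 7 in the wild-type males, knock-in males and wild-type females, and B cell markers for 0, 4 and 5 of 7. Neutrophil markers were called higher for 1, 0 and 5 of 5 in the same order. Fibroblast markers were called higher for 0, 1 and 4 of 6 and lower for 1, 0 and 1. Markers of several cell types thus moved in the comparisons in which the panel was higher. The summed level of 10 general epithelial markers was 8985 to 11800.0 CPM in wild-type male normal colon and 7848 to 8345 CPM in tumours (7 of 10 lower). In the knock-in males it was 8876 to 9571 and 8083 to 9529 CPM (1 of 10 lower). In the wild-type females it was 11526 to 12568 and 6706 to 7989 CPM (9 of 10 lower). In each of the 3 comparisons 1 of the 10 was called higher. Markers of germinal centre B cells, another dividing population, summed to 13.8 to 14.1 CPM and 17.7 to 22.2 CPM in the wild-type males. The sums were 14.3 to 19.95 and 15.2 to 16.0 CPM in the knock-in males, and 8.63 to 10.5 and 15.0 to 18.04 CPM in the wild-type females. These markers went both ways: of the 4 tested, 1, 0 and 1 were called higher and 1, 1 and 2 lower in the same order. The part of these markers in the cell cycle results was not tested. In bulk RNA, more dividing cells and more RNA of these genes per cell cannot be told apart.

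The Mcm2 to Mcm7 proteins form the ring of the replicative helicase, Cdc6 and Cdt1 load it at origins, and Gins2 belongs to the complex that turns it on. Of these 9 genes, 5 were higher in tumours of wild-type males, 5 in the knock-in males and 9 in the wild-type females, with median log2 fold changes of 0.61, 0.69 and 1.16. Mcm3 CPM in the wild-type males were 39.4, 40.1 and 29.2 in normal colon and 70.8, 57.0 and 54.7 in tumours. In tumours of the knock-in males, it was at 34.6, 73.0 and 67.9 CPM, against 35.9, 35.4 and 37.3 CPM in their normal colon. Normal colon of the wild-type females gave 19.7, 38.4 and 19.8 CPM and their tumours 82.5, 69.5 and 76.7 CPM. Tumour and normal values of Mcm3 did not overlap in the wild-type males and females, and in the knock-in males replicate 1 of the tumours was below all 3 normal values while the other two were above them. Tumour against normal colon, Mcm3 had log2 fold changes of 0.75 (SE 0.25, adjusted p = 0.0266) in the wild-type males, 0.69 (SE 0.25, adjusted p = 0.0560) in the knock-in males and 1.56 (SE 0.26, adjusted p = 7.58e-05) in the wild-type females. Mcm2 rose in all 3 comparisons, with log2 fold changes of 0.90, 0.69 and 1.46 in the same order, as did Mcm4 (0.76, 0.89 and 1.25) and Mcm7 (0.61, 0.70 and 1.11). Mcm6 rose in the knock-in males and wild-type females (0.84 and 0.98) and Mcm5 in the wild-type females (1.26).

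Cdt1 is the licensing factor that geminin restrains. Levels of Cdt1 in the wild-type males were 29.1, 26.4 and 24.2 CPM in normal colon and 35.0, 23.3 and 29.4 CPM in tumours. Cdt1 stood at 22.97, 21.2 and 23.1 CPM in normal colon of the knock-in males and at 14.1, 30.7 and 40.98 CPM in their tumours. With the wild-type females, normal colon held 10.4, 17.7 and 11.1 CPM of Cdt1 and tumours 30.3, 29.6 and 26.8 CPM. Its tumour values in the wild-type females lay within the range of those in the wild-type males, while its normal values in the wild-type females lay below all of those in the wild-type males. On the log2 scale, the fold change of Cdt1 was 0.15 (SE 0.27, adjusted p = 0.695) in the wild-type males, 0.35 (SE 0.26, adjusted p = 0.358) in the knock-in males and 1.16 (SE 0.28, adjusted p = 0.00198) in the wild-type females. Gins2 rose in the wild-type males (0.75) and wild-type females (0.97), and Cdc6 in the knock-in males (0.92) and wild-type females (0.95).

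Pcna clamps the polymerase to DNA, Chaf1b belongs to the assembly factor that places new nucleosomes behind the fork, and Uhrf1 carries DNA methylation over to the new strand. Chaf1b in the wild-type males was at 11.9, 9.80 and 10.04 CPM in normal colon and at 19.1, 19.5 and 17.7 CPM in tumours. The knock-in males had Chaf1b at 9.06, 10.5 and 7.52 CPM in normal colon and at 8.50, 24.0 and 21.4 CPM in tumours. For the wild-type females, the Chaf1b values were 6.12, 6.82 and 4.33 CPM in normal colon and 17.6, 22.2 and 20.5 CPM in tumours. Non-overlap held for Chaf1b in the wild-type males and females, and in the knock-in males replicate 1 of the tumours was within the normal range while the other two were above it. The log2 fold change of Chaf1b was 0.82 (SE 0.28, adjusted p = 0.0284) in the wild-type males, 0.99 (SE 0.28, adjusted p = 0.0192) in the knock-in males and 1.79 (SE 0.29, adjusted p = 6.02e-05) in the wild-type females. Pcna moved less, at 0.32 in the wild-type males (not called), 0.44 in the knock-in males and 0.47 in the wild-type females (both called). The knock-in male call of Pcna held in 4 of 15 alternatives, with values of 0.29 to 0.57 and an adjusted p of up to 0.206. Uhrf1 rose in the wild-type females, at 1.61 (SE 0.33, adjusted p = 7.08e-04), and was at 0.65 and 0.64 in wild-type and knock-in males, where it did not pass.

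Ribonucleotide reductase, of which Rrm1 and Rrm2 are the large and small subunits, makes deoxyribonucleotides, and Tyms (thymidylate synthase) makes thymidylate. Rrm2 CPM in the wild-type males were 26.0, 21.5 and 17.99 in normal colon and 48.4, 32.6 and 37.4 in tumours. In tumours of the knock-in males, it was at 29.0, 66.3 and 53.6 CPM, against 16.9, 24.5 and 16.4 CPM in their normal colon. Normal colon of the wild-type females gave 12.97, 17.0 and 8.66 CPM and their tumours 46.0, 52.0 and 55.3 CPM. Every tumour value of Rrm2 was above every normal value of the same sex and genotype. Tumour against normal colon, Rrm2 had log2 fold changes of 0.86 (SE 0.27, adjusted p = 0.0176) in the wild-type males, 1.36 (SE 0.27, adjusted p = 0.00350) in the knock-in males and 1.98 (SE 0.28, adjusted p = 1.52e-05) in the wild-type females. Rrm1 rose in all 3 as well (0.60, 0.93 and 0.89). Tyms did not pass in any. Levels of Tyms in the wild-type males were 25.5, 26.7 and 25.5 CPM in normal colon and 31.7, 27.0 and 27.9 CPM in tumours. Tyms stood at 19.1, 25.3 and 24.97 CPM in normal colon of the knock-in males and at 22.04, 35.5 and 26.2 CPM in their tumours. With the wild-type females, normal colon held 28.8, 36.2 and 24.4 CPM of Tyms and tumours 40.9, 34.8 and 35.1 CPM. Its tumour and normal values overlapped in the knock-in males and wild-type females and lay apart by a narrow margin in the wild-type males. On the log2 scale, the fold change of Tyms was 0.16 (SE 0.17, adjusted p = 0.480) in the wild-type males, 0.27 (SE 0.17, adjusted p = 0.251) in the knock-in males and 0.31 (SE 0.17, adjusted p = 0.134) in the wild-type females.

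Ccne1 and Ccne2 code for cyclin E, the partner of CDK2 at the start of S phase, and E2f1 for the founding member of the activating E2F factors. Ccne1 in the wild-type males was at 6.33, 7.93 and 3.68 CPM in normal colon and at 16.0, 9.02 and 13.4 CPM in tumours. The knock-in males had Ccne1 at 4.30, 7.15 and 6.39 CPM in normal colon and at 7.96, 13.5 and 13.2 CPM in tumours. For the wild-type females, the Ccne1 values were 2.24, 6.13 and 4.02 CPM in normal colon and 20.9, 15.0 and 14.3 CPM in tumours. The groups did not overlap in any of the 3 comparisons, although the knock-in male tumour of replicate 1 was close to the highest normal value. The log2 fold change of Ccne1 was 1.11 (SE 0.39, adjusted p = 0.0316) in the wild-type males, 0.95 (SE 0.38, adjusted p = 0.0836) in the knock-in males and 2.07 (SE 0.41, adjusted p = 3.95e-04) in the wild-type females. The related Ccne2 passed in the knock-in males at 0.78 (SE 0.26, adjusted p = 0.0378) and did not pass in the wild-type males (0.27) or wild-type females (0.46). Its call in the knock-in males held in 6 of 15 alternatives (0.44 to 0.96, adjusted p up to 0.206), and in the wild-type females it passed in 3 of 15, at up to 0.71. E2f1 rose in the wild-type males at 0.76 (SE 0.28, adjusted p = 0.0421) and in the wild-type females at 1.52 (SE 0.29, adjusted p = 2.96e-04), and was at 0.42 in the knock-in males, where it did not pass.

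**Figure D4:**
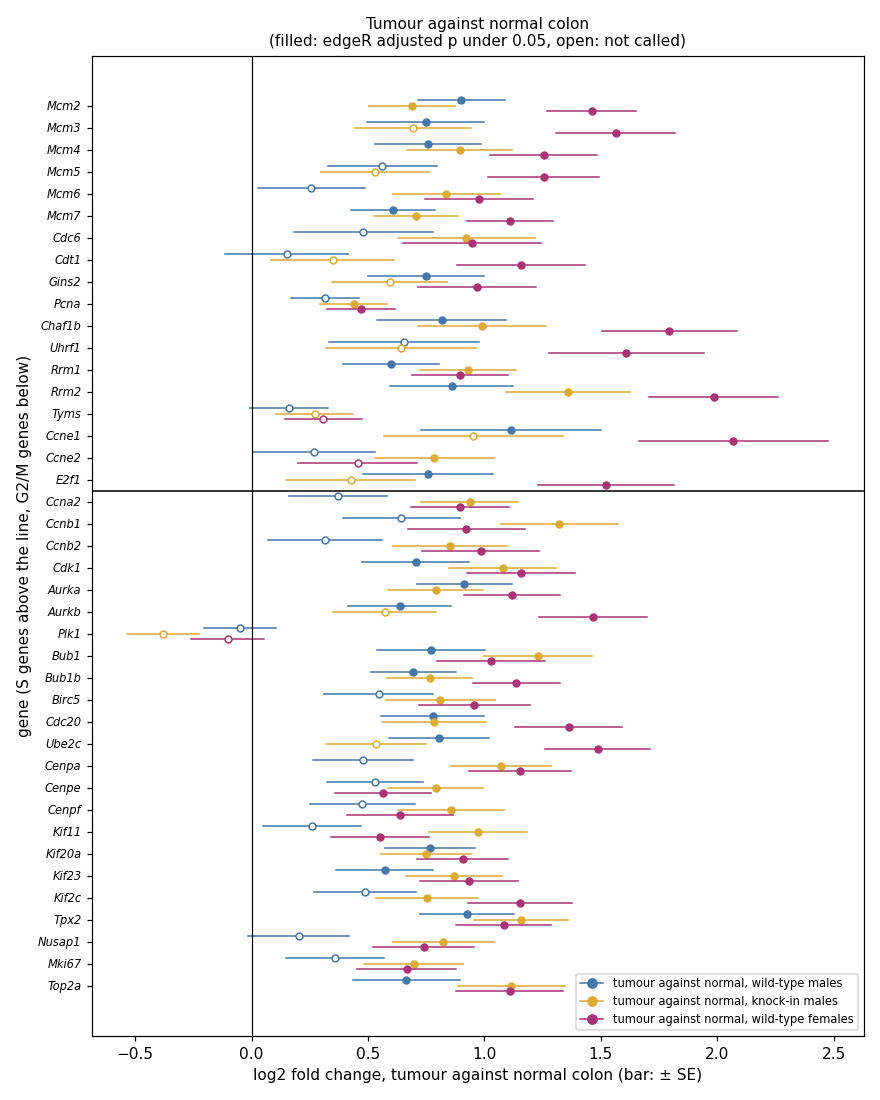
Log2 fold change (± SE) of each of the 41 genes for tumour against normal colon in the wild-type males (blue), knock-in males (yellow) and wild-type females (purple), with filled points for an edgeR adjusted p under 0.05. Nearly all points lie to the right of 0, 38 of 41 are filled for wild-type females, and Plk1 is the only gene with all 3 points left of 0.

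Cyclin A2 (Ccna2) and the B cyclins (Ccnb1, Ccnb2) drive Cdk1, the kinase of mitotic entry. All 4 of these genes were higher in tumours of knock-in males and of wild-type females, and of the 4 Cdk1 was called in the wild-type males. Ccnb1 CPM in the wild-type males were 25.9, 25.4 and 19.5 in normal colon and 40.6, 34.0 and 35.7 in tumours. In tumours of the knock-in males, it was at 26.5, 64.8 and 34.9 CPM, against 18.5, 17.8 and 14.3 CPM in their normal colon. Normal colon of the wild-type females gave 27.5, 24.5 and 22.9 CPM and their tumours 55.2, 49.1 and 38.1 CPM. The tumour values of Ccnb1 were above the normal ones in each comparison, and the highest of all was replicate 2 of the knock-in males. Tumour against normal colon, Ccnb1 had log2 fold changes of 0.64 (SE 0.25, adjusted p = 0.0523) in the wild-type males, 1.32 (SE 0.25, adjusted p = 0.00300) in the knock-in males and 0.92 (SE 0.25, adjusted p = 0.00521) in the wild-type females. In the wild-type males, where same-numbered libraries deviated together, a fit with the replicate number as a block gave Ccnb1 0.65 (adjusted p = 0.0366). Levels of Cdk1 in the wild-type males were 24.4, 25.1 and 20.98 CPM in normal colon and 39.5, 37.2 and 38.1 CPM in tumours. Cdk1 stood at 14.8, 21.1 and 15.6 CPM in normal colon of the knock-in males and at 23.9, 48.8 and 36.0 CPM in their tumours. With the wild-type females, normal colon held 19.6, 24.5 and 18.6 CPM of Cdk1 and tumours 60.5, 37.9 and 41.1 CPM. Cdk1 followed the same order, without overlap between tumour and normal colon. On the log2 scale, the fold change of Cdk1 was 0.70 (SE 0.23, adjusted p = 0.0224) in the wild-type males, 1.08 (SE 0.23, adjusted p = 0.00514) in the knock-in males and 1.16 (SE 0.23, adjusted p = 4.49e-04) in the wild-type females. Ccna2 was at 0.37 (not called), 0.94 and 0.90 in the same order, and Ccnb2 at 0.32 (not called), 0.85 and 0.98.

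Of the mitotic kinases and checkpoint proteins, Aurka, Bub1 and Bub1b rose in all 3 comparisons. Bub1 is a kinase of the spindle checkpoint. Bub1 in the wild-type males was at 13.7, 13.8 and 11.6 CPM in normal colon and at 24.97, 22.7 and 19.3 CPM in tumours. The knock-in males had Bub1 at 6.82, 13.7 and 9.68 CPM in normal colon and at 16.7, 32.9 and 21.6 CPM in tumours. For the wild-type females, the Bub1 values were 15.6, 15.5 and 13.2 CPM in normal colon and 35.0, 28.1 and 27.5 CPM in tumours. Tumour values of Bub1 exceeded normal ones throughout. The log2 fold change of Bub1 was 0.77 (SE 0.23, adjusted p = 0.0150) in the wild-type males, 1.23 (SE 0.23, adjusted p = 0.00279) in the knock-in males and 1.03 (SE 0.23, adjusted p = 0.00122) in the wild-type females. The log2 fold changes of Aurka, the kinase of the spindle poles, were 0.91, 0.79 and 1.12 in the same order, and those of Bub1b (BubR1) 0.69, 0.76 and 1.14. Aurkb, the kinase of the chromosomal passenger complex, rose in the wild-type males (0.64) and females (1.47), and Birc5 (survivin), a subunit of that complex, in the knock-in males (0.81) and wild-type females (0.96).

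Plk1, the polo kinase of mitotic entry and spindle assembly, was not called in any of the 3 comparisons as fitted on all libraries. Plk1 CPM in the wild-type males were 64.1, 77.7 and 63.0 in normal colon and 72.1, 56.7 and 68.3 in tumours. In tumours of the knock-in males, it was at 47.9, 70.1 and 56.8 CPM, against 72.6, 62.9 and 92.2 CPM in their normal colon. Normal colon of the wild-type females gave 74.1, 56.1 and 66.5 CPM and their tumours 57.8, 67.7 and 58.0 CPM. Tumour and normal values overlapped in each of the 3 comparisons, and the highest value of all was in normal colon of a knock-in male. Tumour against normal colon, Plk1 had log2 fold changes of -0.05 (SE 0.16, adjusted p = 0.834) in the wild-type males, -0.38 (SE 0.16, adjusted p = 0.0876) in the knock-in males and -0.10 (SE 0.16, adjusted p = 0.612) in the wild-type females. It was the 1 gene of the 41 whose fold change was below 0 in each comparison. In the knock-in males it was called lower in 2 of 15 alternatives, at -0.55 (adjusted p = 0.0267) without normal replicate 2 and -0.57 (adjusted p = 0.0368) without tumour replicate 2. With library totals in place of scaled sizes, the value in the wild-type females was 0.04 (adjusted p = 0.863), above 0.

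Cdc20 and Ube2c serve the anaphase-promoting complex, Cdc20 as its activator and Ube2c as its ubiquitin-conjugating enzyme. Levels of Ube2c in the wild-type males were 22.4, 23.5 and 16.1 CPM in normal colon and 37.8, 28.2 and 41.8 CPM in tumours. Ube2c stood at 13.4, 15.6 and 15.4 CPM in normal colon of the knock-in males and at 15.4, 26.2 and 22.6 CPM in their tumours. With the wild-type females, normal colon held 9.12, 11.8 and 15.2 CPM of Ube2c and tumours 38.8, 33.9 and 27.1 CPM. Ube2c values of tumours lay above those of normal colon in the wild-type males and females, and in the knock-in males replicate 1 of the tumours fell within the normal range. On the log2 scale, the fold change of Ube2c was 0.81 (SE 0.21, adjusted p = 0.00740) in the wild-type males, 0.53 (SE 0.22, adjusted p = 0.0842) in the knock-in males and 1.49 (SE 0.22, adjusted p = 2.97e-05) in the wild-type females. Cdc20 rose in all 3 comparisons (0.78, 0.78 and 1.36). The centromere genes Cenpa (the centromeric histone), Cenpe (a kinetochore motor) and Cenpf were called higher in the knock-in males and wild-type females, 3 of 3 in both, and 0 of 3 in the wild-type males, where 2 of 3 had an unadjusted p under 0.05. Their log2 fold changes in the wild-type males were 0.48, 0.53 and 0.48, in the knock-in males 1.07, 0.79 and 0.86, and in the wild-type females 1.15, 0.56 and 0.64.

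The motor and spindle genes comprised the kinesins Kif11, Kif20a, Kif23 and Kif2c and the spindle proteins Tpx2 and Nusap1. All 6 rose in the knock-in males and in the wild-type females, and Kif20a, Kif23 and Tpx2 rose in the wild-type males. Tpx2 activates Aurora A on spindle microtubules. Tpx2 in the wild-type males was at 30.4, 28.2 and 22.7 CPM in normal colon and at 54.9, 50.3 and 49.5 CPM in tumours. The knock-in males had Tpx2 at 17.1, 26.1 and 20.2 CPM in normal colon and at 31.8, 63.7 and 46.0 CPM in tumours. For the wild-type females, the Tpx2 values were 24.3, 27.6 and 30.2 CPM in normal colon and 60.5, 52.8 and 59.8 CPM in tumours. No tumour value of Tpx2 was as low as a normal one of the same sex and genotype. The log2 fold change of Tpx2 was 0.93 (SE 0.20, adjusted p = 0.00178) in the wild-type males, 1.16 (SE 0.20, adjusted p = 0.00250) in the knock-in males and 1.08 (SE 0.20, adjusted p = 2.46e-04) in the wild-type females. Kif11, the motor that pushes the spindle poles apart, was at 0.26 in the wild-type males (not called), 0.97 in the knock-in males and 0.55 in the wild-type females. Kif20a and Kif23, motors of cell division's last step, were at 0.77 and 0.57 in the wild-type males, 0.75 and 0.87 in the knock-in males, and 0.91 and 0.93 in the wild-type females. Kif2c and Nusap1 did not pass in the wild-type males (0.49 and 0.20), and were at 0.75 and 0.82 in the knock-in males and 1.15 and 0.74 in the wild-type females.

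Top2a and Mki67 are widely used as markers of dividing cells. Top2a CPM in the wild-type males were 167, 161 and 134 in normal colon and 268, 221 and 243 in tumours. In tumours of the knock-in males, it was at 167, 357 and 269.8 CPM, against 101, 162 and 103 CPM in their normal colon. Normal colon of the wild-type females gave 172, 184 and 146 CPM and their tumours 448, 329 and 307 CPM. Top2a values of tumours lay above those of normal colon without overlap, the knock-in male tumour of replicate 1 by the smallest margin. Tumour against normal colon, Top2a had log2 fold changes of 0.67 (SE 0.23, adjusted p = 0.0302) in the wild-type males, 1.11 (SE 0.23, adjusted p = 0.00466) in the knock-in males and 1.11 (SE 0.23, adjusted p = 6.55e-04) in the wild-type females. Levels of Mki67 in the wild-type males were 357, 312 and 312 CPM in normal colon and 422, 399 and 438 CPM in tumours. Mki67 stood at 228, 305 and 248 CPM in normal colon of the knock-in males and at 248, 605 and 413 CPM in their tumours. With the wild-type females, normal colon held 335, 349 and 316 CPM of Mki67 and tumours 644, 469 and 475 CPM. For Mki67 the knock-in male tumour of replicate 1 lay within the normal range, whereas in the wild-type males and females all tumour values were above the normal ones. On the log2 scale, the fold change of Mki67 was 0.36 (SE 0.21, adjusted p = 0.195) in the wild-type males, 0.70 (SE 0.21, adjusted p = 0.0274) in the knock-in males and 0.67 (SE 0.21, adjusted p = 0.0139) in the wild-type females.

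**Figure D5:**
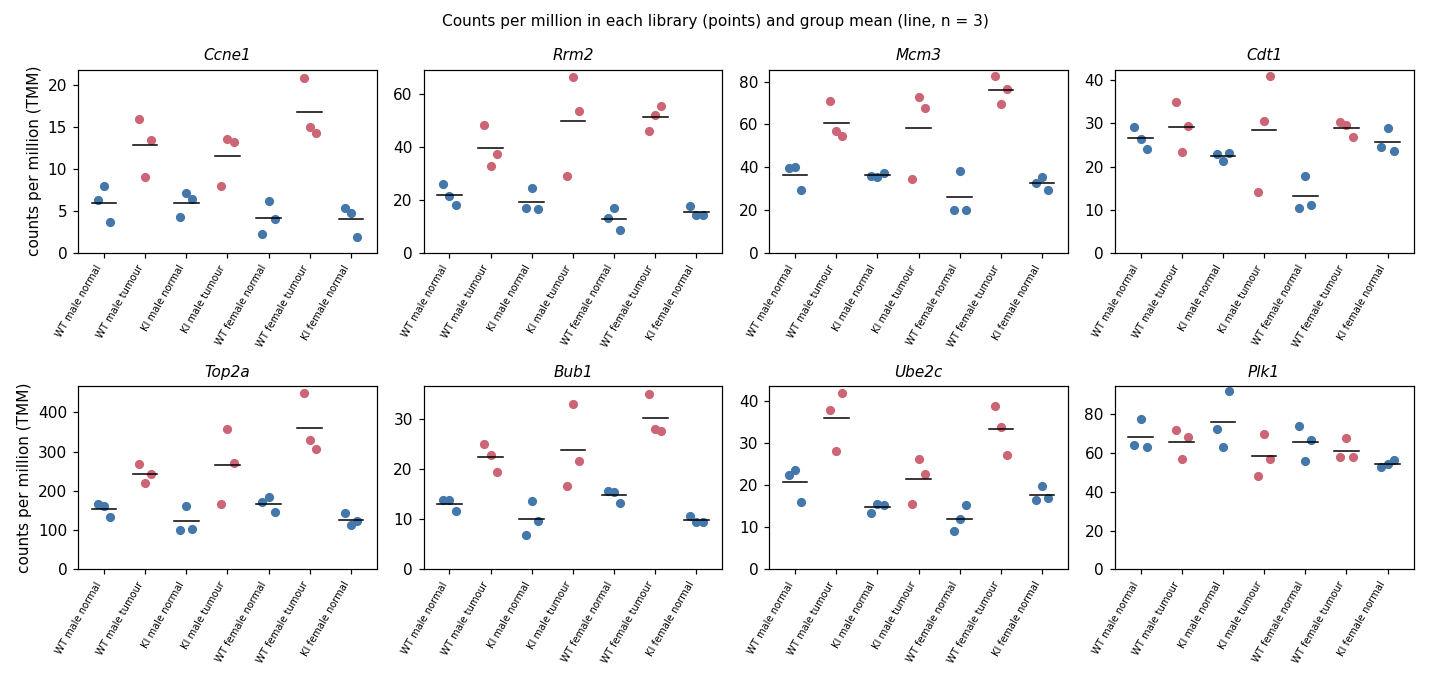
CPM of 8 genes in each library (points, tumours red, normal colon blue) with the group mean (line, n = 3), all axes from 0. Ccne1, Rrm2, Mcm3, Top2a and Bub1 have higher group means in tumours than in normal colon of the same sex and genotype. In the knock-in males Ccne1 and Mcm3 were not called, and Mcm3 in tumour replicate 1 was below the normal values. Cdt1 has its lowest group mean in wild-type female normal colon. Ube2c is lower in male tumours of the knock-in than of the wild type, and the Plk1 groups overlap.

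Knock-in and wild-type tumours of males were then compared, to ask how the App mutations bear on the panel within tumours. Ube2c was the 1 gene of the 41 that passed, and it was lower in knock-in tumours (5.23% of all genes were called lower and 9.30% higher). Its tumour levels, given above, were 15.4, 26.2 and 22.6 CPM in knock-in and 37.8, 28.2 and 41.8 CPM in the wild-type males. All 3 knock-in values were below the 3 wild-type values, and the log2 fold change was -0.76 (SE 0.21, adjusted p = 0.0288). The call did not hold without wild-type tumour replicate 1, wild-type tumour replicate 3 or knock-in tumour replicate 1 (adjusted p = 0.0717, 0.115 and 0.0784). It also did not hold with a correction for GC content and transcript length (log2 fold change -0.62, adjusted p = 0.0709) or with the 2 groups fitted alone (log2 fold change -0.79, adjusted p = 0.0600). The median log2 fold change was -0.05 over S genes and 0.01 over G2/M genes, with 19 genes above 0 and 22 below. Single libraries moved these medians: without knock-in tumour replicate 1 the S median was 0.20, and without knock-in tumour replicate 2 the G2/M median was -0.37 and 2 genes passed. Cell type markers differed between these groups too. Crypt stem and progenitor markers summed to 883 to 1228 CPM in knock-in and 1511 to 1616 CPM in wild-type tumours, and smooth muscle markers to 1029 to 1276 and 334 to 975 CPM, both without overlap, although 0 of 6 and 0 of 10 were called singly. Of 6 macrophage markers 3 were called lower in the knock-in tumours, with sums of 98.7 to 182 and 183 to 298 CPM. Their part in the result was not tested.

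The tumour effect was also compared between genotypes directly, as an interaction in males. By edgeR 0 of 41 genes passed, 1 was at an unadjusted p under 0.05, DESeq2's Wald test gave 0, and 1.51% of all genes were called. That gene was Kif11, with an interaction of 0.71 (SE 0.30, adjusted p = 0.152), chosen here after its value was seen. So the calls that differ between wild-type and knock-in males, such as those of the centromere genes, were not shown to differ as effects. 1 gene passed when knock-in normal replicate 2 was left out.

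In normal colon of males, knock-in against wild-type, 0 of 41 passed by edgeR and 0 by DESeq2's Wald test, with 2 at an unadjusted p under 0.05 and 0.0126% of all genes called. Those 2 were Ube2c at -0.49 and Kif11 at -0.48. Of the 41 fold changes, 37 were below 0, with a median of -0.14 over S genes and -0.36 over G2/M genes. Genes of the panel move together between libraries, so their signs are not independent.

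In normal colon of females, Cdt1 was the 1 gene that passed, and it was higher in the knock-in (8.97% of all genes were called higher). Its levels were 24.6, 29.0 and 23.6 CPM in knock-in and 10.4, 17.7 and 11.1 CPM in the wild-type females, without overlap. The log2 fold change was 0.99 (SE 0.27, adjusted p = 0.0209). It was 0.62 (adjusted p = 0.121) with the correction for GC content and length, and did not pass without wild-type replicate 1, wild-type replicate 3 or knock-in replicate a (adjusted p = 0.109, 0.0576 and 0.0871). Replicates a and b are 2 knock-in female libraries whose columns carry the same name. Chaf1b (log2 fold change 0.82, SE 0.29, adjusted p = 0.0602), E2f1 (log2 fold change 0.75, SE 0.29, adjusted p = 0.0866) and Ube2c (log2 fold change 0.58, SE 0.22, adjusted p = 0.0858) did not pass. 6 genes passed when the 2 groups were fitted alone, 2 by DESeq2's Wald test, and 3 without wild-type replicate 2. Smooth muscle markers summed to 7774 to 10820.0 CPM in knock-in and 2219.9 to 5108 CPM in the wild-type females (5 of 10 higher), and fibroblast markers to 2171 to 2744 and 1125 to 1368 CPM (3 of 6 higher), without overlap. Of 10 epithelial markers 3 were called lower in the knock-in, with sums of 10579 to 10967 and 11526 to 12568 CPM, and of 6 crypt stem and progenitor markers 2 were higher. Their part in the result was not tested.

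Female and male normal colon of wild-type mice differed in 4 of the 41 genes, and all 4 were lower in females (10.2% of all genes were called lower and 5.74% higher). The share of the panel called lower was thus close to that of all genes. This comparison and the previous one share the wild-type female normal libraries. Cdt1 was at 10.4, 17.7 and 11.1 CPM in females and 29.1, 26.4 and 24.2 CPM in males, with a log2 difference of -1.04 (SE 0.27, adjusted p = 0.0161). Aurkb was at 9.59, 11.8 and 11.8 CPM in females and 22.2, 17.9 and 18.3 CPM in males, with a log2 difference of -0.83 (SE 0.23, adjusted p = 0.0203). Neither gene overlapped between the sexes. Ube2c was at 9.12, 11.8 and 15.2 CPM in females and 22.4, 23.5 and 16.1 CPM in males, with a log2 difference of -0.80 (SE 0.22, adjusted p = 0.0199). Chaf1b was at 6.12, 6.82 and 4.33 CPM in females and 11.9, 9.80 and 10.04 CPM in males, with a log2 difference of -0.87 (SE 0.29, adjusted p = 0.0460). These too lay apart without overlap.

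None of the 4 calls held in every fit that left 1 library out: the count was 0 without male replicate 1, 0 without female replicate 1 and 2 without male replicate 2. With the correction for GC content and length 2 of the 4 passed, and Cdt1 was at -0.64 (adjusted p = 0.106). Over all 18 S genes the median was -0.43, and -0.69 without female replicate 2, the library with high S genes, against -0.06 over the G2/M genes. The summed crypt stem and progenitor markers were 191 to 254 CPM in the wild-type females, 366 to 747 in the wild-type males and 304 to 335 in knock-in females, and the differentiated colonocyte markers 2424 to 5666, 1367 to 3323 and 2958 to 3271 CPM. Fibroblast markers summed to 1125 to 1368 CPM in the wild-type females and 2366 to 2657 CPM in the wild-type males, without overlap. Their part in the result was not tested.

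In tumours of wild-type mice 0 of 41 genes differed between females and males by edgeR or by DESeq2's Wald test, with 6 at an unadjusted p under 0.05 (0.860% of all genes were called). All of these 6 were higher in females: Ccne2 at 0.78 (SE 0.26, adjusted p = 0.108), and Pcna, Cenpe, Kif11, Nusap1 and Top2a at 0.38, 0.43, 0.54, 0.48 and 0.56. With the 2 groups fitted alone 5 genes passed. The tumour effect by sex, tested as an interaction, had 0 of 41 genes past the threshold by edgeR and 0 by DESeq2's Wald test, with 10 at an unadjusted p under 0.05 (1.12% of all genes were called). It was above 0, a larger tumour effect in females, for 40 of 41 genes, with a median of 0.63 over S genes and 0.41 over G2/M genes, and largest for Rrm2 at 1.13 (SE 0.38, adjusted p = 0.163). The all-gene median of this contrast was 0.03. Here too the genes of the panel move together between libraries, so the 40 signs are not independent and no larger effect in females was shown. Without wild-type female normal replicate 2 the S median was 0.98.

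Knock-in female and male normal colon differed in 0 of 41 genes by edgeR and by DESeq2's Wald test, with 1 at an unadjusted p under 0.05 (0.584% of all genes were called), namely Plk1 at -0.48 (SE 0.16, adjusted p = 0.145). Plk1 was at 52.7, 54.4 and 56.3 CPM in knock-in females and 72.6, 62.9 and 92.2 CPM in the knock-in males, without overlap. 1 gene passed without knock-in male replicate 2. For the genotype effect by sex in normal colon, 0 of 41 passed by edgeR and 2 by DESeq2's Wald test, with 5 at an unadjusted p under 0.05 (2.54% of all genes were called). The largest were Cdt1 at 1.24 (SE 0.38, adjusted p = 0.0910) and Ube2c at 1.06 (SE 0.31, adjusted p = 0.0747). 1 gene passed with the 4 groups fitted alone and 1 without wild-type female replicate 3.

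Other genes of the cell cycle, in lists that hold none of the 41, are given for the same tumour comparisons. For these lists too, the shares of all genes called higher were 16.5% in the wild-type males, 10.4% in the knock-in males and 25.0% in the wild-type females. The shares called lower were 19.3%, 9.97% and 24.0%. Of 49 other mitosis genes, edgeR called 19 higher and 0 lower in the wild-type males, 34 higher and 0 lower in the knock-in males and 36 higher and 1 lower in the wild-type females, with median log2 fold changes of 0.51, 0.81 and 0.87. Ect2, which positions the cleavage furrow, was at 26.8, 33.8 and 29.5 CPM in knock-in male normal colon and 62.9, 104 and 68.8 CPM in tumours, with a log2 difference of 1.39 (SE 0.16, adjusted p = 7.75e-04). The condensin subunit gene Smc2 was at 27.1, 46.3 and 27.5 CPM and 55.5, 108 and 77.0 CPM, with a log2 difference of 1.25 (SE 0.22, adjusted p = 0.00240). In wild-type mice the called genes with the largest changes were Gtse1 (1.28 in males and 1.63 in females) and Cks1b, a Cdk1-binding subunit (1.10 and 1.80). The 1 gene called lower was Pttg1 (securin, the inhibitor of separase) in the wild-type females. It was at 13.9, 12.4 and 18.9 CPM in normal colon and 11.5, 7.01 and 7.06 CPM in tumours, with a log2 difference of -0.82 (SE 0.21, adjusted p = 0.00363), and at -0.36 (adjusted p = 0.349) when the 3 libraries that the labels number 152 to 154, of which 2 are tumours of this group, were left out.

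Of 40 other replication genes, 15 higher and 0 lower in the wild-type males, 15 higher and 0 lower in the knock-in males and 25 higher and 0 lower in the wild-type females were called, with medians of 0.35, 0.47 and 0.70. Gins1, of the same complex as Gins2, rose in all 3 (1.29, 1.28 and 1.63). Pole, the leading-strand polymerase, rose by a log2 fold change of 1.03 in the wild-type males and 1.46 in the wild-type females, and Dbf4, the activator of the origin-firing kinase, by 1.17 in the knock-in males. Of 6 G1 cyclins and kinases, 4 higher and 0 lower in the wild-type males, 3 higher and 1 lower in the knock-in males and 4 higher and 0 lower in the wild-type females were called. Ccnd1, cyclin D1, was at 60.4, 97.8 and 50.8 CPM in wild-type female normal colon and 244, 199 and 244 CPM in tumours, and its log2 fold changes were 1.06, 0.91 and 1.72 in the 3 comparisons. Its kinase Cdk4 rose with it (1.11, 0.72 and 1.69). The 1 gene of this list called lower was Ccnd3 in the knock-in males, at -0.50 (SE 0.14, adjusted p = 0.0231), a call that held in 9 of 15 alternatives (-0.61 to -0.27).

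Of 15 E2F, DREAM and G2/M transcription factor genes, 6 higher and 1 lower in the wild-type males, 6 higher and 1 lower in the knock-in males and 8 higher and 0 lower in the wild-type females were called. Mybl2 (B-MYB) and E2f7, an atypical E2F that represses, had the largest changes among those that rose, in each comparison. Mybl2 was at 1.08, 0.80 and 1.63 and E2f7 at 0.76, 0.86 and 1.64. In the wild-type males the call of E2f7 held in 5 of 14 alternatives, with values of 0.41 to 0.95. With the replicate number as a block, E2f7 there was at 0.76 (adjusted p = 0.0670), not past the threshold. Without wild-type male tumour replicate 1 it was at 0.41 (adjusted p = 0.313). Tfdp2, a dimer partner of E2F proteins, was lower in the wild-type males (log2 fold change -0.61, SE 0.15, adjusted p = 0.00384), and E2f4, a repressor E2F of DREAM, lower in the knock-in males (log2 fold change -0.31, SE 0.10, adjusted p = 0.0423). The E2f4 call held in 6 of 15 alternatives, with values of -0.44 to -0.07 and an adjusted p of up to 0.607. In the knock-in males the calls of Mybl2 and E2f7 held in 8 of 15 and 7 of 15 alternatives.

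The 10 genes of CDK inhibitors and pocket proteins, the brakes of the cycle, were called in both directions. The calls were 2 higher and 3 lower in the wild-type males, 0 and 0 in the knock-in males and 2 higher and 5 lower in the wild-type females. Their medians were -0.09, -0.07 and -0.26. Of all genes, 16.5%, 10.4% and 25.0% were called higher and 19.3%, 9.97% and 24.0% lower in the same order. The share of the list called higher was thus near or below that of all genes. The share called lower was above it in the wild-type males and females. Cdkn1b (p27) was lower in the wild-type males, at 81.7, 69.4 and 87.8 CPM in normal colon and 41.02, 45.4 and 44.6 CPM in tumours (log2 fold change -0.87, SE 0.18, adjusted p = 0.00148), as was the pocket protein gene Rbl2 (-0.57). Cdkn2b (p15) was lower in the wild-type females (log2 fold change -1.07, SE 0.21, adjusted p = 3.27e-04). Cdkn1c (p57) was higher, at 6.21, 3.76 and 5.11 CPM in wild-type female normal colon and 36.9, 28.8 and 46.5 CPM in tumours (log2 fold change 2.86, SE 0.59, adjusted p = 8.25e-04). In the wild-type males Cdkn1c was at 1.75 (SE 0.55, adjusted p = 0.0210), and at 1.61 (adjusted p = 0.0682) with the replicate number as a block. Cdkn2a (p16 and p19) was at 3.87, 4.04 and 0.0994 CPM in wild-type male normal colon and 15.0, 10.8 and 20.2 CPM in tumours. In the wild-type females it was at 0.169, 0 and 0 CPM and 10.5, 4.09 and 9.45 CPM, with 4, 0 and 0 raw counts in the 3 normal libraries. It is among the genes called higher in both, but no fold is given, since the normal level in females is near the counting limit.

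Cdkn1a (p21), the CDK inhibitor induced by p53, was called for a difference between the sexes in its tumour effect. Cdkn1a in the wild-type males was at 132, 126 and 157 CPM in normal colon and at 172, 185 and 172 CPM in tumours. The wild-type females had Cdkn1a at 207, 180.5 and 202 CPM in normal colon and at 118, 117 and 102 CPM in tumours. It was lower in tumours of females (log2 fold change -0.81, SE 0.17, adjusted p = 6.71e-04) and did not pass in males (log2 fold change 0.35, SE 0.17, adjusted p = 0.118). The interaction of the tumour effect with sex was -1.16 (SE 0.24, adjusted p = 0.0267), the 1 call in these lists among the interactions. Of all genes, 1.12% were called in this interaction, 1.51% for the tumour effect by genotype and 2.54% for the genotype effect by sex. The share of the lists called was thus not above that of all genes. The Cdkn1a interaction was also not stable to single libraries. It did not pass when any 1 of 7 of the 12 libraries was left out (male normal replicate 1, male normal replicate 2, male tumour replicate 1, male tumour replicate 2, male tumour replicate 3, female normal replicate 1, female tumour replicate 3), with adjusted p from 0.0584 to 0.0845, or without the libraries numbered 152 to 154 (adjusted p = 0.205).

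Fewer genes of these lists, which hold 6, 10, 15, 40 and 49 genes, passed between genotypes and sexes. Of all genes, 9.30% were called higher and 5.23% lower in knock-in against wild-type male tumours. In knock-in against wild-type male tumours, the calls were 3 higher and 1 lower among 15 transcription factor genes (Tfdp2 at 0.54 and E2f6 at 0.52 led those higher, E2f4 at -0.34 was lower) and 2 higher among 40 replication genes (Orc4 at 0.50 and Orc3 at 0.41), and 0 in the other lists. None of the 5 calls named held throughout: of 15 alternatives, Tfdp2 kept its call in 8 (0.34 to 0.58), E2f6 in 4 (0.44 to 0.54), E2f4 in 5 (-0.41 to -0.18), Orc4 in 5 (0.05 to 0.62) and Orc3 in 8. With the correction for GC content and length Orc3 was at -0.00276 (adjusted p = 0.989), and the highest adjusted p of Orc4 was 0.829. In female normal colon, 7 genes of the 5 lists were higher and 9 lower in the knock-in, where 8.97% of all genes were called higher. The share of all genes called lower there is not given, so nothing is read from the 9 lower calls as a count. Wee1, the kinase that holds Cdk1 inactive, was higher at 1.03 (SE 0.18, adjusted p = 0.00115), with 43.2, 45.8 and 26.3 CPM against 19.4, 18.4 and 18.6 CPM in the wild-type females, and Cdk6 was higher at 0.95 (SE 0.20, adjusted p = 0.00387). E2f2 was lower at -1.09 (SE 0.26, adjusted p = 0.00858). In wild-type normal colon, 4 were higher and 14 lower in females, where 5.74% of all genes were called higher and 10.2% lower. In these 3 comparisons the share of the lists called higher was below that of all genes. The share called lower in wild-type females was close to that of all genes. These females had less Ccnd1 (log2 fold change -0.97, SE 0.18, adjusted p = 0.00178) and Cdk6 (log2 fold change -0.96, SE 0.20, adjusted p = 0.00340) than males. The calls of Wee1, Cdk6 and E2f2 between female genotypes and of Ccnd1 and Cdk6 between the sexes held under every alternative run. In wild-type tumours, where 0.860% of all genes were called, Orc2 was higher in females at 0.58 (SE 0.13, adjusted p = 0.0481). That call held in 3 of 15 alternatives, with values of 0.41 to 0.68 and an adjusted p of up to 0.239.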

How the data were processed

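RNA-seq gene counts of 21 libraries in 7 groups of 3 were used. The deposited values are raw whole-number counts per gene and library. Per the labels' protocols, total RNA was cleared of ribosomal RNA with RNase H and primed with random hexamers. Per the submitters' processing notes, the tools were Trimmomatic, HISAT2, featureCounts and DESeq2 with the mm10 genome. Their versions, the annotation and the strand setting are not given in the sources used here, so reads of overlapping genes could not be told apart. Library totals ran from 3414123 to 26174008 counts, and the 41 genes passed the low-count filter in full. Per-sample columns not used numbered 0. 2 count columns with the same name were kept as unnumbered replicates a and b.

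Counts were scaled with TMM and tested with edgeR 4.0.16 (glmQLFit with robust set, glmQLFTest, R 4.3.3) in 1 fit over all 7 groups after filterByExpr (15936 of 24062 genes). CPM use the TMM sizes, and log2 CPM a prior count of 2. A call is a Benjamini-Hochberg adjusted p under 0.05 over all tested genes. DESeq2 1.42.0 was an alternative, as were its size factors, library totals, no filter, a fit of only the compared groups, offsets for GC content and transcript length (available for 99.1% of tested genes), the replicate number as a block, and each replicate left out. Leaving out the libraries numbered 152 to 154 was added after seeing the data. Same-numbered libraries of wild-type males deviated together (correlations 0.17, 0.17 and 0.21 over genes), by data and not by a label, and for that comparison the blocked value is given where it changes a call. The code was tested on simulated data. The 41 genes and the other gene lists were chosen with earlier results of these data known. Genes outside the 41 were named as the at most 2 called in each direction, per list and comparison, with the largest log2 fold change among those with a mean of at least 50 counts in a group compared. Promoter windows are from RefSeq (GRCm38.p6). CPM per kilobase use the longest annotated transcript.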

Additional observations from a re-analysis of the deposited data

Results flagged for a closer look

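The tumour effect of Cdkn1a (p21) differed between wild-type males and females by the interaction term of edgeR's quasi-likelihood test, at -1.16 (SE 0.24, adjusted p = 0.0267) on the log2 scale, with 3 of 3 male tumours above and 3 of 3 female tumours below all normal values of their sex. With the replicate number as a block the value was -1.15 (adjusted p = 0.0574). In this interaction 1.12% of all genes were called.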

How the results depend on the processing

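The calls in wild-type females and wild-type males held their direction and stayed within 1.5 times their main counts under the alternatives other than leaving out a library. With only the compared groups fitted, the number of the 41 genes called was 0 for the tumour comparison in knock-in males, 0 for knock-in against wild-type male tumours, 6 for knock-in against wild-type female normal colon, 5 for female against male wild-type tumours and 1 for the genotype effect by sex. With GC and length offsets it was 0 for knock-in against wild-type male tumours and 2 for female against male wild-type normal colon, and with the replicate block added 0 and 1. Library totals and DESeq2's Wald test both gave 2 for knock-in against wild-type female normal colon, and the Wald test 2 for the genotype effect by sex. Orc3 in knock-in against wild-type male tumours turned to -0.00276 with GC and length offsets. The causes of these changes were not tested.

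Leaving out 1 library gave 6 to 18 genes for tumour against normal colon of wild-type males, 11 to 36 for knock-in males and 33 to 37 for wild-type females. The ranges were 0 to 2 for male tumours between genotypes, 0 to 3 for female normal colon between genotypes, 0 to 5 for wild-type normal colon between sexes, and 0 to 1 for knock-in normal colon between sexes, the tumour effect by genotype and the genotype effect by sex. They were 0 to 0 for male normal colon between genotypes, wild-type tumours between sexes and the tumour effect by sex. Where 1 library was left out of 3, the remaining 2 share the spread estimated over all groups.

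With the replicate block, 22 genes were called for wild-type males, 26 for knock-in males and 37 for wild-type females, and 1, 0, 4 and 0 in the other comparisons of 2 numbered groups. The block ended the calls of Cdc6, Pcna, Cdc20 and Mki67 in knock-in males and of Cenpf in wild-type females. In these comparisons at least 1 of the 3 same-numbered pairs did not deviate together, so no pairing was taken from them. This check cannot show that such pairs share nothing but a number. The knock-in female libraries carry no full numbering and were not in the block fits. Without the libraries numbered 152 to 154 the counts were 20 for knock-in males and 34 for wild-type females. Library totals moved the median log2 fold change of all genes to 0.15 in wild-type females, 0.10 between female normal colons and 0.13 for the tumour effect by sex. Library totals down to 3414123 counts limit the low genes, such as Gins2 and Ccne1, most.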

Other observations

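The mean log2 CPM of the S genes minus that of the G2/M genes was -0.36, -0.27 and -0.35 in the wild-type male normal libraries, -0.06, -0.14 and -0.09 in knock-in male, -0.69, -0.07 and -0.88 in wild-type female and -0.33, -0.07 and -0.19 in knock-in female normal libraries. In tumours it was -0.20, -0.30 and -0.37 in wild-type males, -0.30, -0.38 and 0.05 in knock-in males and -0.29, -0.26 and -0.20 in wild-type females. The lowest values were those of wild-type female normal replicates 1 and 3, and replicate 2 of that group was within the range of the knock-in male normal libraries. The highest value was that of knock-in male tumour replicate 3.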
